A study of Mus musculus with 4 samples.

Results

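The *Sox2*+ *Epcam*+ cells described here are the epithelial cells of the dissected heart region that met a fixed rule on their transcripts, with the working name *Sox2*-positive foregut epithelium. There were 689 of them among 30415 kept cells. Control libraries 5 and 7 held 261 and 128, while *Tie2-cko* libraries 6 and 8 held 131 and 169. A barcode was kept with at least 1500 genes and at most 10% mitochondrial UMIs. A cell was then chosen with at least 2 UMIs of *Epcam*, which encodes an adhesion protein of epithelia, at least 1 UMI of *Sox2*, a transcription factor of the anterior foregut, and no UMI of *Nkx2-1*, a transcription factor of lung and thyroid. Limits on *Afp* (under 5 UMIs per 10000), *Tnnt2* (under 15), *Hbb-y* (under 500) and the sum of *Pecam1*, *Cdh5* and *Ecscr* (under 2) kept out liver cells, cardiomyocytes (CMs), red blood cells and endothelial cells. Levels of these 9 genes in the chosen cells were set by the rule and are given only as description.

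The study profiled mouse hearts of E10.5 (both sexes, mixed 129 and C57/BL6 background) as single cells in 10x Genomics droplets, where unique molecular identifiers (UMIs) count captured transcripts. Controls were *Tie2flfl* (libraries 5 and 7), and *Tie2-cko* were *Nfatcre-Tie2flfl* (libraries 6 and 8), so that both genotypes carried the floxed *Tie2* (*Tek*) alleles. The knock-in *Nfatc1*-driven Cre was used to delete *Tie2* in the endocardium, so that for the epithelium described here the model concerns a neighbouring tissue. Tissue was taken from all of the cardiogenic region. By the methods, somite-matched hearts of both genotypes came from the same litter, 2 per genotype at a stage, and neither the methods nor the labels tie a heart to a library. P-values across libraries therefore measure the spread between these 4 libraries, which may be partly technical.

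The epithelium of the embryonic foregut derives from endoderm and lies directly behind the heart. Along its length it gives rise to the pharyngeal pouches, the oesophagus, the stomach and duodenum, and it buds off thyroid, lung, liver and pancreas. SOX2 is known for its part in the anterior and dorsal foregut, opposite NKX2-1 in the ventral foregut. PAX1, PAX9 and TBX1 mark the pharyngeal pouches, while NKX6-2, ONECUT1, GATA4 and PDX1 act further back, around the stomach, duodenum and pancreas.

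The libraries differed in depth. The median *Sox2*+ *Epcam*+ cell held 13908 UMIs in library 5, 29052 in library 6, 10831 in library 7 and 12937 in library 8, with medians of 3758, 5559, 3212 and 3653 genes. Library 6 was thus the deepest and library 7 the shallowest. Between 29 and 62 barcodes were shared by any pair of libraries, and no barcode was held by chosen cells of 2 libraries. *Tek* was lower in both *Tie2-cko* libraries in the tissue of the Cre, with a level (mean UMIs per 10000 over cells) in endothelial-gated cells of 0.758 in library 5, 1.18 in library 7, 0.313 in library 6 and 0.224 in library 8. In the *Sox2*+ *Epcam*+ cells *Tek* was near 0 in every library, at 0.0227, 0.0256, 0.00503 and 0.0336 in the same order.

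Apart from genotype, libraries 5 and 6 stood apart from libraries 7 and 8. The level of *Wdr89* was 0.754 and 1.03 in the chosen cells of libraries 5 and 6 against 7.25 and 6.25 in libraries 7 and 8, and *Rps27rt* was at 0.794, 0.908, 6.69 and 7.02. CMs showed the same order, with *Wdr89* at 0.595, 0.715, 5.57 and 4.96. How reads shared with copies of these genes were counted was not tested, and the genes were picked after their values had been seen. *Xist* cells were frequent in library 5 alone. *Xist*, which is made from the inactive X chromosome, was counted in 19 of its 261 chosen cells, and in 0, 1 and 0 cells of libraries 6, 7 and 8. Transcripts of Y-linked genes and no *Xist* were counted in 174 chosen cells of library 5, so that it held cells of both sexes.

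Of the 5 markers given for these cells, 3 were present in all 4 libraries and 2 were not. *Sox2* had levels of 3.09, 3.12, 2.56 and 2.50 in libraries 5, 6, 7 and 8, set by the rule. *Wfdc2*, which encodes a secreted protein of epithelia, was at 5.62, 7.93, 4.82 and 3.46, and *Klf5*, a transcription factor of endodermal epithelia, at 0.892, 1.61, 0.390 and 0.313. In all other kept cells the highest library value was 0.354 for *Wfdc2*. Other epithelium held it too, at 2.89 in the 514 *Epcam*+ cells with neither *Sox2* nor *Nkx2-1*. Among cells with *Sox2* and *Nkx2-1*, it was at 6.75 in the 7 with 1 *Nkx2-1* UMI and 3.77 in the 25 with more. The homeobox gene *Nkx6-2* was at 0.323 in library 5 and 0.720 in library 6, whereas it was at 0 in library 7 and 0.00202 in library 8. *Onecut1*, a transcription factor of stomach, duodenum, liver and pancreas, was at 0.387 and 1.15 in libraries 5 and 6 and at 0.00789 and 0.00652 in libraries 7 and 8. The last 2 markers were thus near 0 in libraries 7 and 8, and the cells are called here by their rule.

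**Figure D1:**
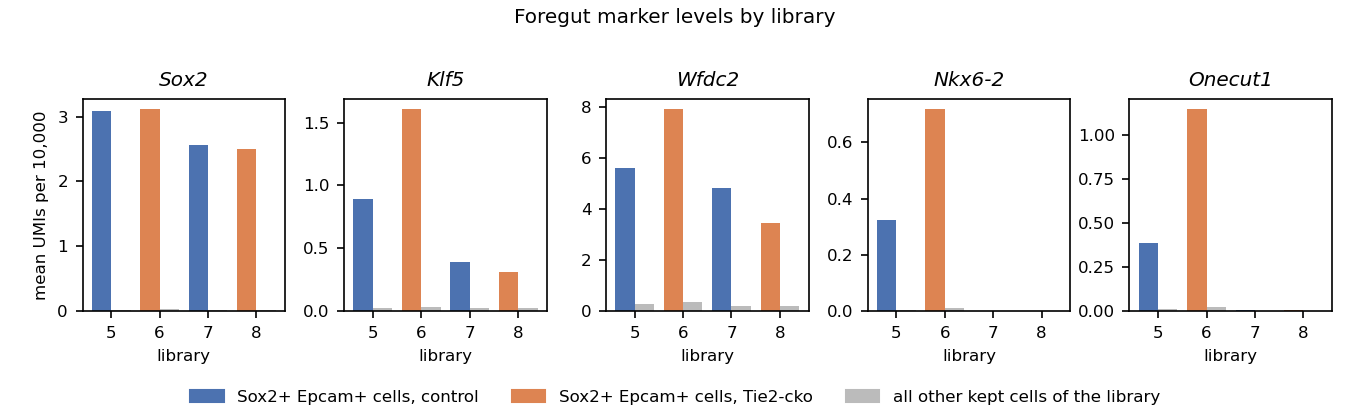
Mean level (UMIs per 10,000, y axis) of the 5 foregut markers in the *Sox2*+ *Epcam*+ cells (coloured bars, control blue, *Tie2-cko* orange) and in all other kept cells (grey) of libraries 5, 6, 7 and 8 (x axis). *Sox2*, *Klf5* and *Wfdc2* stood above the grey bars in all 4 libraries, whereas *Nkx6-2* and *Onecut1* were near 0 in libraries 7 and 8.

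The share of cells with a UMI gave the same picture at equal depth. After each cell had been thinned to 5000 UMIs, with 1, 5, 1 and 1 shallower chosen cells left out, *Onecut1* was found in 13.5% of the cells of library 5 (95% exact binomial interval 9.56% to 18.2%), 46.0% of library 6 (37.1% to 55.1%) and 0.787% of library 7 (0.0199% to 4.31%). In library 8 it was found in 0 of 168 cells, which allows a share of up to 1.79% (3 counts of the total, the limit used for every count of 0 here) or 2.17% by the exact interval. Unthinned, the shares were 26.4%, 74.0%, 0.781% and 1.18%. CMs, which lack *Onecut1*, had 2 of 3155, 0 of 1233, 1 of 3643 and 0 of 4492 thinned cells with a UMI, where the counts of 0 allow up to 0.243% and 0.0668%, at median depths of 28090, 48690, 21633.5 and 24100 UMIs. Intervals and limits of this kind cover counting error only.

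The loci of the markers are given on GRCm38. *Sox2* lies at chr3:34650405-34652461 on the forward strand, *Klf5* at chr14:99298691-99315036 (forward), *Nkx6-2* at chr7:139579376-139582797 (reverse), *Onecut1* at chr9:74861921-74891781 (forward) and *Wfdc2* at chr2:164562413-164568510 (forward). All 5 are annotated as protein-coding genes by GENCODE M21.

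The genes that stood highest in these cells against all other kept cells were those of tight junctions and simple epithelium. The chosen cells were compared with other cells that the rule had separated from them, so no test was made. Among the 1281 genes at 1 UMI per 10000 or more in each library, *Sox2* (127-fold) and *Epcam* (38.6-fold) led by construction. The claudins *Cldn6*, *Cldn7* and *Cldn3*, which seal tight junctions, followed at 31.2-fold, 30.9-fold and 23.6-fold. *Cldn7* was even between the libraries, at 2.81, 3.01, 2.74 and 2.69. Next came *Wfdc2*, the ceramidase gene *Acer2* (12.1-fold), the protease inhibitor gene *Spint2* (11.4-fold) and *Crabp2* (9.95-fold), which encodes a retinoic acid binding protein. Of the 24 genes of the epithelial junction and keratin list, 23 were higher than in all other kept cells in each of the 4 libraries, *Epcam* among them by construction. Of the 1281 genes above, which unlike the list were filtered by level, 761 were. Other epithelium carried these genes too. The list summed to 38.5, 48.3, 29.4 and 30.4 in the chosen cells of libraries 5, 6, 7 and 8, and to 29.7, 21.5, 27.8 and 27.1 in the *Epcam*+ cells with neither *Sox2* nor *Nkx2-1*.

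Keratins separated the pairs of libraries. *Krt8*, a keratin of simple epithelia, was at 5.29 and 7.82 in libraries 5 and 6 and at 2.31 and 2.39 in libraries 7 and 8, and its partner *Krt18* was at 8.97, 12.8, 4.40 and 4.97. The LIM homeobox gene *Isl1* went the other way, at 1.34 and 0.518 in libraries 5 and 6 against 2.21 and 2.44. These splits ran between pairs of libraries, which also differed in the groups of cells described next. *Krt8* was at 8.34 and 8.49 in the *Nkx6-2/Onecut1* cells of libraries 5 and 6, and at 3.01, 1.84 and 1.90 in the *Pax1/Pax9* cells of libraries 5, 7 and 8.

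The thresholds cut through a continuous range of counts. There were 30 cells with exactly 2 *Epcam* UMIs, in which *Wfdc2* was at 5.2 and *Klf5* at 0.595, and 27 cells just outside with 1 *Epcam* UMI, in which they were at 2.60 and 0.220. There were 142 cells with exactly 1 *Sox2* UMI. *Klf5* was at 0.602 in them and at 0.182 in the 514 *Epcam*+ cells that had no *Sox2* UMI, and *Wfdc2* at 4.92 and 2.89. The conditions on *Epcam*, *Sox2* and *Nkx2-1* were met by 786 cells, of which 57 exceeded the limit on *Tnnt2*, 20 that on *Afp*, 14 that on *Hbb-y* and 9 the endothelial limit, some of them more than 1 limit. A further 32 cells had both *Sox2* and *Nkx2-1*, 7, 22, 0 and 3 by library.

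Clustering the 689 cells by themselves gave 7 clusters, which were joined into 4 groups by their leading genes after they had been seen. Each group but the mixed cells is called by 2 known genes that were high in it, of which *Shh* was not among the 10 leading genes of its group and was also present in the *Nkx6-2/Onecut1* cells. Since every gene was used to find the groups, their levels are description. The *Nkx6-2/Onecut1* cells (214 cells) came from libraries 5 and 6 alone, with 101 and 113 cells. They made up 38.7% of the chosen cells of library 5 (95% exact binomial interval 32.8% to 44.9%) and 86.3% of library 6 (79.2% to 91.6%). None was found among the 128 and 169 chosen cells of libraries 7 and 8, which allows shares of up to 2.34% and 1.78% by 3 counts of the total, or 2.84% and 2.16% by the exact interval.

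The *Pax1/Pax9* cells (267 cells) numbered 92, 4, 68 and 103 in libraries 5, 6, 7 and 8, or 35.2%, 3.05%, 53.1% and 60.9% of the chosen cells. The *Shh/Trp63* cells (170 cells) numbered 51, 4, 55 and 60, or 19.5%, 3.05%, 43.0% and 35.5%. Control library 5 thus held all 3 groups, *Tie2-cko* library 6 mostly the first, and control library 7 and *Tie2-cko* library 8 the other two but not the first. The mixed cells (38 cells, 17, 10, 5 and 6) carried genes of other tissues and are described further on. Because the groups differed by library and each genotype had 2 libraries, the share of a group was not compared between genotypes. Which stretch of the foregut a dissection took along and the group make-up cannot be told apart here.

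**Figure D2:**
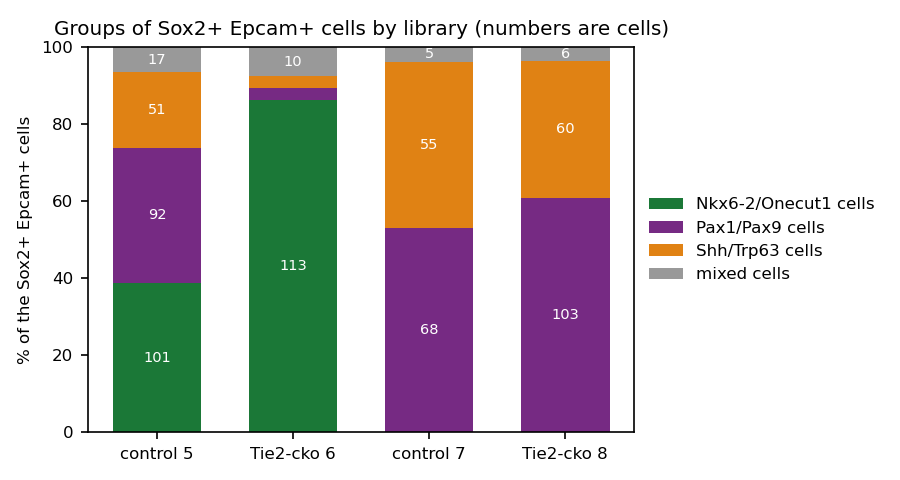
Share of the *Sox2*+ *Epcam*+ cells (y axis, %) in each of the 4 groups, for each library (x axis). The numbers in the bars are cells. *Nkx6-2/Onecut1* cells were seen in libraries 5 and 6 alone, while the bars of control 7 and *Tie2-cko* 8 were made up mostly of *Pax1/Pax9* and *Shh/Trp63* cells.

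The *Nkx6-2/Onecut1* cells carried transcription factors of the posterior foregut. *Onecut1* was at 0.989 in library 5 and 1.30 in library 6, *Gata4* at 0.686 and 0.718 and *Osr1*, a zinc finger gene of foregut and mesoderm, at 1.20 and 1.01. *Klf5* was at 1.84 and 1.80, the highest of the 3 groups. The pioneer factors of endoderm, *Foxa1* and *Foxa2*, were at 1.06 and 0.938 in library 5 and at 1.04 and 0.919 in library 6. Of the hedgehog ligands, *Shh* was at 0.863 and 0.966, and *Ihh*, which was at 0 in both other groups, was at 0.412 and 0.556. *Pax9* was close to 0 in them, at 0.00925 and 0.00062. The 2 libraries were of different genotype, and the largest gap among these genes, apart from *Pax9*, was that of *Ihh* at under 1.5-fold.

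A part of these cells held *Nkx6-2* itself, and *Pdx1*, *Onecut2*, *Rbp4* and *Nepn* stood higher in that part. Of the 13 genes of the hepatopancreatic list, 2 were at 0.25 or above in the *Nkx6-2/Onecut1* cells of both libraries. That list summed to 4.16 and 2.82 in them, below all other kept cells of libraries 5 and 6 (5.39 and 10.8). An *Nkx6-2* UMI was found in 22 of 101 cells of library 5 (21.8%) and in 30 of 113 of library 6 (26.5%), at median depths of 15499.5 and 23409.5 UMIs against 14342 and 23896 in the cells that had none. The split was made after the values had been seen and has no test. *Pdx1*, a transcription factor needed for the pancreas, was counted in 11 of the 22 cells with *Nkx6-2* and in 0 of the 79 others in library 5. In library 6 it was counted in 17 of 30 and in 4 of 83.

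Apart from *Nkx6-2*, 9 genes stood at least 3-fold higher in the cells with *Nkx6-2* in both libraries (with 0.1 added to each level). *Onecut2*, a relative of *Onecut1*, was at 2.10 in the cells with and 0.103 in the cells without *Nkx6-2* in library 5, and at 2.53 and 0.125 in library 6. *Rbp4*, which encodes the carrier of retinol, was at 10.9 against 0.400 and at 4.59 against 0.325. *Nepn*, which encodes a secreted proteoglycan, was at 7.11 against 0.290 and at 9.03 against 0.162. The others were *Pdx1*, *Sptssb*, *Nrp2*, *Sfrp5*, *Ttr* and *Cdx2*, the last a transcription factor of the intestine at 0.210 and 0.207 against 0 and 0. The 1 gene that was lower by the same measure in both libraries was *Pitx1*, a homeobox gene, at 0.187 against 1.28 in library 5 and 0.169 against 1.16 in library 6.

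Genes of the whole group differed less across this split. *Osr1* was at 1.24 with and 1.18 without *Nkx6-2* in library 5 and at 1.16 and 0.952 in library 6. *Klf5* was at 2.03 with and 1.79 without *Nkx6-2* in library 5, and at 2.42 and 1.57 in library 6. *Onecut1* was higher in the cells with *Nkx6-2*, at 1.24 against 0.920 and at 2.23 against 0.968, and so was *Gata4*, at 1.12 against 0.563 and at 1.48 against 0.442. *Shh* was lower in the cells with *Nkx6-2*, at 0.664 against 0.919 and at 0.541 against 1.12.

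**Figure D3:**
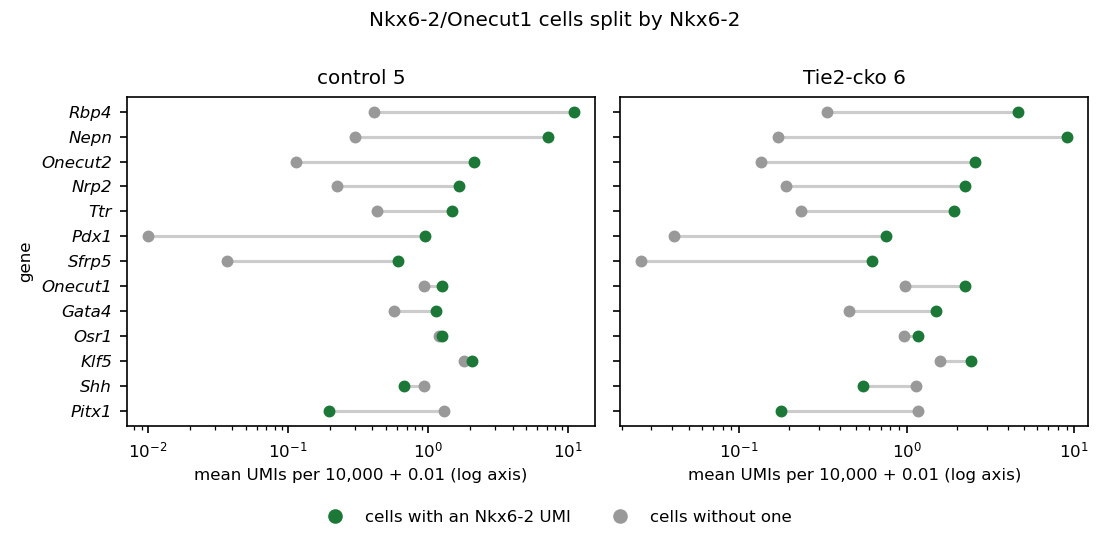
Mean level (UMIs per 10,000 plus 0.01, log axis) of 13 genes (y axis) in *Nkx6-2/Onecut1* cells with an *Nkx6-2* UMI (green, 22 and 30 cells) and without one (grey, 79 and 83 cells) in control library 5 and *Tie2-cko* library 6. *Rbp4*, *Nepn*, *Onecut2* and *Pdx1* were far higher in the green cells of both libraries, *Pitx1* was lower, and *Osr1* lay close together.

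The *Pax1/Pax9* cells carried genes of the pharyngeal pouches. The 4 cells of library 6 were too few for a level, so that values are given for libraries 5, 7 and 8. *Pax9* was at 1.11, 1.85 and 2.15, *Pax1* at 1.14, 0.891 and 0.55 and *Tbx1*, which is needed for the pouches, at 0.477, 0.368 and 0.516. The 17 genes of the pharyngeal endoderm list, *Pax1* and *Pax9* among them, summed to 6.61, 6.69 and 6.08 in these cells. Of the 17, 6 were at 0.25 or above in these cells in each of these libraries. Over all chosen cells, 8 of the 17 were at 0.25 or above in libraries 7 and 8, against 4 in library 5 and 0 in library 6. The list summed to 3.13, 0.702, 4.62 and 4.65 in all chosen cells of libraries 5, 6, 7 and 8. In the other *Epcam*+ cells it summed to 2.24, 0.755, 5.40 and 4.46. *Sfrp2*, a secreted modulator of Wnt signals, was at 1.46, 2.79 and 0.920. *Vgll2*, a cofactor of TEAD proteins, was at 2.13, 1.51 and 0.846. *Klf5* was low in these cells, at 0.107, 0.131 and 0.131, and *Shh* was at 0.219, 0.0279 and 0.0756.

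Within this group library 5 stood apart from libraries 7 and 8, and the clusters joined in it divided the same way, with 90 of the 92 cells of library 5 in one and all 68 of library 7 and 101 of the 103 of library 8 in the other. With 0.1 added to each level, 16 genes were at least 4-fold apart between library 5 and both of the others, while 0 genes were as far apart between control library 7 and *Tie2-cko* library 8. For 6 of the 16, *Wdr89* and *Xist* among them, CMs differed by the same rule, and for 10 they did not. Of the 10, *Nutf2-ps1*, *Ftl1-ps1*, *Bc1* and *Rpl10-ps3* were nonetheless several-fold higher in the CMs of libraries 7 and 8, the last at 0.597 in library 5 against 3.07 and 2.66. *Aldh1a1*, which makes retinoic acid, was at 0.142 in library 5 and at 1.92 and 1.26 in libraries 7 and 8, while CMs were at 0.0138 or less. *Hoxb4* was at 0.0534, 0.891 and 0.661. *Irs4*, an adaptor of insulin receptor signals, was at 0.144, 0.932 and 0.878. In the other direction stood *Nkx2-3*, a homeobox gene of pharynx and gut mesoderm, at 1.14, 0.181 and 0.169. *Xist* cells made up 13 of 92 in library 5, and no *Xist* cell was among the 68 and 103 of libraries 7 and 8.

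The *Shh/Trp63* cells held the ligand *Shh* at 1.57, 1.48 and 1.65 in libraries 5, 7 and 8, the highest of the 3 groups in each library where it could be compared. *Trp63*, a transcription factor of stratified epithelia, was at 0.659, 1.04 and 0.827, and its target *Perp*, a gene of cell adhesion, at 1.33, 1.25 and 1.33. The 15 genes of the surface and oral ectoderm list, *Trp63* and *Perp* among them, summed to 2.42, 3.46 and 2.43. That sum was 1.40, 0.188 and 0.414 in the *Pax1/Pax9* cells, and 1.31 and 1.28 in the *Nkx6-2/Onecut1* cells of libraries 5 and 6. In the *Shh/Trp63* cells 2 of the 15 were at 0.25 or above in each of these libraries. An ectodermal origin was not tested. *Isl1* was at 3.03, 2.19 and 2.82 in the *Shh/Trp63* cells. *Bmp4*, a ligand of the BMP pathway, was at 1.83, 1.60 and 0.676, and *Isoc1*, which encodes a hydrolase-like protein, at 4.77, 4.72 and 4.36. *Bmp4* was lowest and *Trp63* intermediate in *Tie2-cko* library 8, while *Shh* and *Perp* were even. *Klf5* was at 0.607, 0.745 and 0.643, between the other 2 groups.

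**Figure D4:**
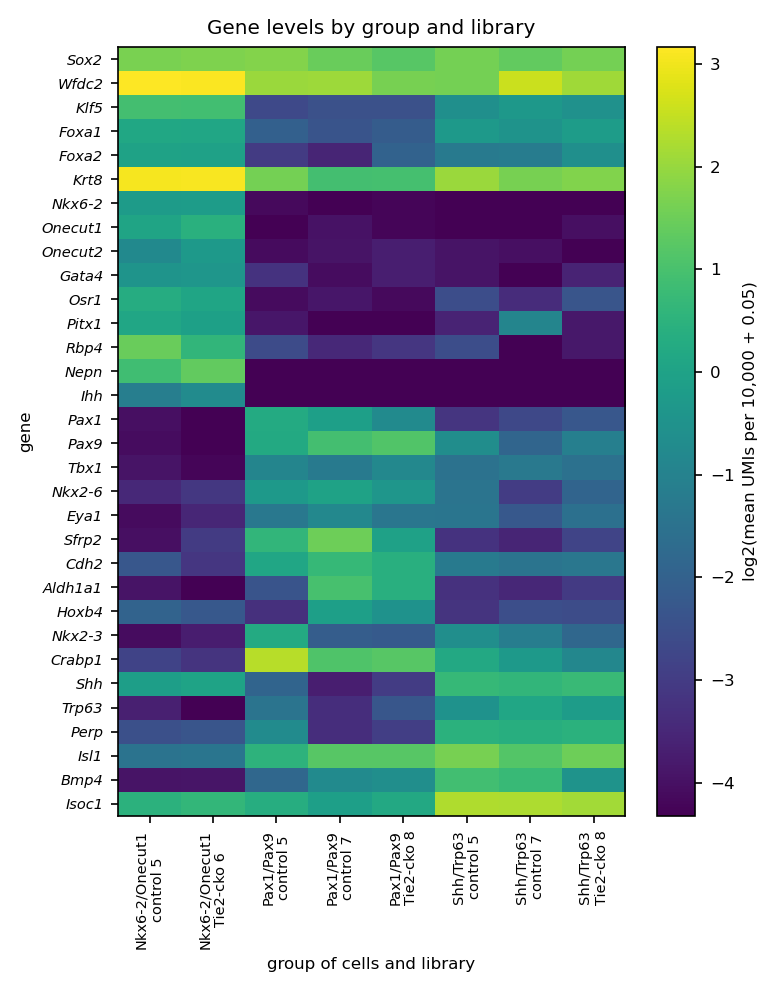
Levels of 32 genes (y axis) as log2 of mean UMIs per 10,000 plus 0.05 (colour scale) in each group of *Sox2*+ *Epcam*+ cells by library (x axis). Groups with under 20 cells in a library are left out. *Onecut1*, *Gata4* and *Osr1* stood out in the *Nkx6-2/Onecut1* columns, *Pax1* and *Pax9* in the *Pax1/Pax9* columns, and *Shh* and *Trp63* in the *Shh/Trp63* columns.

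The *Nkx6-2/Onecut1* and the *Shh/Trp63* cells each held a cluster high and a cluster low in cycling genes. *Top2a*, which untangles DNA in dividing cells, was at 5.28 and 5.30 in the high *Nkx6-2/Onecut1* cluster of libraries 5 and 6 and at 0.434 and 0.244 in the other. In the *Shh/Trp63* clusters of libraries 7 and 8 it was at 5.15 and 8.32 (24 and 25 cells) against 0.377 and 0.230, and the high cluster held only 9 cells of library 5. Summed over the 30 genes of the G2 and mitosis list, the level in all chosen cells was 29.6, 36.5, 29.2 and 36.3 in libraries 5, 6, 7 and 8, with both *Tie2-cko* libraries above both controls. None of the 30 passed edgeR's test of genotype given further on, and their median log2 fold change was 0.16. In the groups this sum was 32.0 and 37.5 in the *Nkx6-2/Onecut1* cells of libraries 5 and 6. It was 34.1, 38.7 and 41.8 in the *Pax1/Pax9* cells of libraries 5, 7 and 8, and 17.2, 17.5 and 26.7 in their *Shh/Trp63* cells. The 30 S phase genes summed to 28.6, 33.6, 32.6 and 31.1, and the genotypes overlapped.

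The groups also differed in their signalling genes. The 14 hedgehog genes summed to 4.73, 3.55 and 3.76 in the *Shh/Trp63* cells of libraries 5, 7 and 8. In the *Pax1/Pax9* cells they summed to 2.65, 2.26 and 2.27, and in the *Nkx6-2/Onecut1* cells of libraries 5 and 6 to 3.03 and 3.12. These genes include *Shh*, which names the *Shh/Trp63* cells and whose levels are given above, so the order of the sums partly follows from the grouping. Sums without *Shh* were not compared. The 22 BMP and TGF-beta genes summed to 19.3, 18.5 and 18.7 in *Shh/Trp63* cells of libraries 5, 7 and 8. They summed to 13.0, 14.9 and 15.6 in the *Pax1/Pax9* cells, and to 9.73 and 10.7 in the *Nkx6-2/Onecut1* cells of libraries 5 and 6. The sum of the 18 retinoic acid genes was highest in *Pax1/Pax9* cells, at 11.9, 14.0 and 13.7, and lowest in *Shh/Trp63* cells, at 6.79, 6.91 and 6.11. The 26 *Hox* genes summed to 1.20 in the *Pax1/Pax9* cells of library 5 and to 3.83 and 3.90 in those of libraries 7 and 8.

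Endothelial, macrophage, epicardial and mesenchyme markers were low in the chosen cells. The 9 endothelial markers summed to at most 0.196 UMIs per 10000 in any library, with *Plvap* or *Pecam1* the most abundant, and the rule capped 3 of them (*Pecam1*, *Cdh5* and *Ecscr*). The 6 macrophage and platelet markers summed to at most 0.0346, with 3, 3, 3 and 5 of them at 0, and the 5 epicardial markers to at most 0.198. The 9 mesenchyme markers summed to 0.682, 1.02, 0.658 and 0.679. In the 38 mixed cells that sum was 5.94, 11.3, 6.82 and 5.24, and the median cell held 27786.5 UMIs. Scrublet gave 18 of the 38 mixed cells a high doublet score, against 0 of the *Nkx6-2/Onecut1*, 3 of the *Pax1/Pax9* and 1 of the *Shh/Trp63* cells. The mesenchymal genes *Twist1* (0.787, 3.03, 2.53 and 3.89) and *Barx1* (2.30, 2.98, 0 and 0) were among their leading genes. The neuronal gene *Nefm* was at 2.65, 0.0163, 0 and 3.72 in them. The 17 neural tube and placode genes summed to 1.21, 0.427, 1.45 and 1.43 in the chosen cells, below all other kept cells of each library (1.58, 1.94, 1.91 and 2.05). They were highest in the *Pax1/Pax9* cells among the 3 larger groups, at 1.86, 2.20 and 1.74 in libraries 5, 7 and 8. Most of that was *Cdh2*, the gene of N-cadherin, at 1.04, 1.56 and 1.28, while *Pax6* and *Sox1*, which define neural tissue, were at or near 0.

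Globin and heart muscle transcripts were present in the chosen cells at levels that differed by library. *Hbb-y*, an embryonic globin, was at 32.9, 6.08, 16.8 and 5.47 in the chosen cells of libraries 5, 6, 7 and 8, and both *Tie2-cko* libraries lay below both controls. In the other *Epcam*+ cells it was at 34.2, 6.36, 17.3 and 7.10, and in CMs at 24.2, 6.22, 10.1 and 4.16. The 9 CM markers summed to 18.9, 11.2, 28.8 and 27.7, with *Myl7* the most abundant (5.49, 3.34, 8.05 and 8.37), against 589 in the CMs of library 5. The rule capped *Hbb-y* and *Tnnt2*. Whether these transcripts came from free RNA was not tested.

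**Figure D5:**
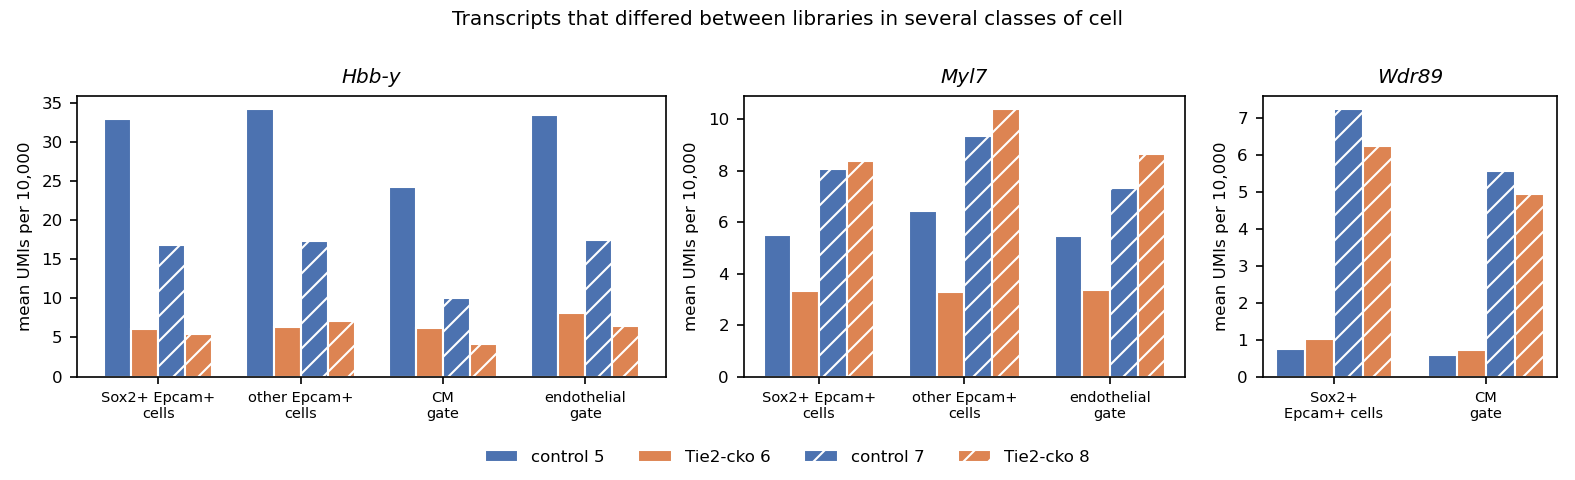
Mean level (UMIs per 10,000, y axis) of *Hbb-y*, *Myl7* and *Wdr89* by class of cell (x axis) and library (control blue, *Tie2-cko* orange, hatched for libraries 7 and 8). *Hbb-y* was lower in libraries 6 and 8 in each class shown, and *Wdr89* was higher in libraries 7 and 8 in both. CMs, which express *Myl7* themselves, are left out of its panel.

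The comparison of the genotypes asked whether deleting *Tie2* in the endocardium went with a change in the neighbouring epithelium. The chosen cells made up 2.89% of the kept cells of library 5 (95% exact binomial interval 2.56% to 3.26%) and 1.61% of library 7 (1.34% to 1.91%), and 2.93% of library 6 (2.46% to 3.47%) and 1.89% of library 8 (1.61% to 2.19%). The mean was 2.25% ± 0.91 (SD, n = 2) in control and 2.41% ± 0.74 (SD, n = 2) in *Tie2-cko*. The ranges overlapped, and an exact permutation test over the libraries gave a two-sided p of 0.667, where the smallest possible with 2 against 2 is 0.33. The direction turned when library 6 or library 7 was left out, with differences of -0.365 and -0.485 percentage points.

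Among *Epcam*+ cells of the same gate the share was lower in both *Tie2-cko* libraries. It was 49.2% and 57.1% for control, and 37.1% and 46.3% for *Tie2-cko*, a difference of -11.4 percentage points (53.1% ± 5.65 against 41.7% ± 6.5, SD, n = 2 each). The exact permutation p was 0.33, the smallest that 4 libraries allow, so the design could not reach 0.05. The difference was -6.85 without library 6, -7.45 without library 7 and -7.17 with every cell thinned to 5000 UMIs before the gate. The rest of these *Epcam*+ cells held *Nkx2-1* (105, 113, 3 and 49 cells by library) or neither gene (165, 109, 93 and 147). These cells are part of the denominator, and the counts of *Nkx2-1* cells differed widely between libraries.

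UMI counts were summed over the chosen cells of each library and compared by the quasi-likelihood test of edgeR, with p-values adjusted after Benjamini and Hochberg. None of the 11285 genes tested passed an adjusted p of 0.05 (0.0% called). An unadjusted p under 0.05 was found for 74, fewer than evenly spread p-values would give. With the block for pairs of libraries described further on, the edgeR test gave 604. DESeq2 called 0 genes higher and 5 lower in *Tie2-cko*. Among the genes lower in *Tie2-cko*, the smallest p by edgeR were those of 5 globins, none of which passed. DESeq2 called these 5. *Hbb-bh1* had 2706, 706, 602 and 258 UMIs in libraries 5, 6, 7 and 8 and a log2 fold change of -2.15 (SE 0.26), and *Hba-a2* of -1.73 (SE 0.24), both with an adjusted p of 1.0 by edgeR. *Hbb-bt* and *Hba-x* had log2 fold changes of -2.21 and -2.07. The fifth globin was *Hbb-y*, which the rule capped and which is not counted as a result.

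Among those higher in *Tie2-cko* with the smallest p, none passed either. *Rtn1*, a gene of the endoplasmic reticulum, was at 0.136, 0.291, 0.0878 and 0.225 in libraries 5, 6, 7 and 8, with both *Tie2-cko* libraries above both controls and a log2 fold change of 1.16 (SE 0.25), which was 0.66 without the mixed cells and 0.06 with cells matched by group. *Rpl29*, a ribosomal protein gene, was at 16.5, 26.7, 13.8 and 24.6, with a log2 fold change of 0.71 (SE 0.16). The fold change was 0.35 with cells matched by group and 1.15 in the *Pax1/Pax9* and *Shh/Trp63* cells alone. In that last fit *Tie2-cko* library 6 gave only 4 *Pax1/Pax9* and 4 *Shh/Trp63* cells. In the *Nkx6-2/Onecut1* cells *Rpl29* was at 28.5 (library 5, control) and 27.0 (library 6, *Tie2-cko*). CMs also had both *Tie2-cko* libraries above both controls, at 13.6, 16.7, 14.2 and 19.3. *Hoxa5* had a log2 fold change of 1.35 (SE 0.35) from 23, 107, 11 and 29 UMIs, or 0.81 without the mixed cells and 0.64 with matched cells. That of *Lgals1* was 0.88 (SE 0.20), and turned to -0.11 without the mixed cells and -0.19 with matched cells. *Herpud1*, a gene of the unfolded protein response, had 0.92 (SE 0.26), or 0.69 with matched cells. Their adjusted p was 1.0 by edgeR.

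By this edgeR test none of the 28 gene lists had a member past the threshold. DESeq2 and the block described next called globins of the red blood cell list. For the TIE2 and FOXO1 list 10 of 14 genes were tested, 0 higher and 0 lower, with a median log2 fold change of 0.03 beside 0.0 over all genes tested. *Tek*, *Tie1* and *Nfatc1* were too low to be tested. The ligand *Angpt1* was at 0.132 and 0.278 in control and 0.0432 and 0.380 in *Tie2-cko*, so that the genotypes overlapped. *Foxo1* was at 0.210, 0.197, 0.111 and 0.104 in libraries 5, 6, 7 and 8, lower in the second pair. Of the hedgehog list 11 of 14 were tested with a median of -0.02, of the Wnt list 19 of 24 with 0.23, of the FGF list 11 of 15 with -0.12 and of the retinoic acid list 13 of 18 with 0.17. The foregut transcription factors (15 of 21 tested) had a median of 0.72 and the pharyngeal genes (13 of 17) of -0.65. With cells matched by group, as described next, these medians were 0.11 and -0.17. The mesenchyme markers (9 of 9 tested) and epicardial markers (5 of 5) had medians of 1.03 and 1.08 over all chosen cells. With matched cells 2 mesenchyme markers were tested, with a median of -0.76, and 0 epicardial markers.

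A block for libraries 5 and 6 against 7 and 8 left 0 genes higher and 6 lower, which were globins. When the cells were matched as well, with *Nkx6-2/Onecut1* cells compared between libraries 5 and 6 and *Pax1/Pax9* with *Shh/Trp63* cells between 7 and 8, 1 of 10134 genes was higher (0.00987% called) and 22 were lower in *Tie2-cko* (0.217% called) by edgeR at an adjusted p of 0.05. This comparison was added after the data had been seen. It has 1 control and 1 *Tie2-cko* library for each kind of cell, and its spread comes from the trend over all genes. Of the 9 CM markers 6 were among the lower genes, and of the 7 red blood cell markers 5, which count *Tnnt2* and *Hbb-y*, both capped by the rule and so no result. Over all chosen cells the CM markers had a median log2 fold change of -0.08 against -0.60 with matched cells, and *Myl7* was at 0.14 against -0.60. The pairs differed for *Myl7*, which was at 5.27 and 2.64 in the *Nkx6-2/Onecut1* cells of libraries 5 and 6. In all chosen cells of libraries 7 and 8 it was at 8.05 and 8.37. In the other *Epcam*+ cells *Myl7* was at 6.43, 3.27, 9.34 and 10.4 in libraries 5, 6, 7 and 8. The CM marker *Nppa* was lower in *Tie2-cko* in both pairs, at 1.37 and 0.753 and at 3.19 and 2.07. This was not particular to the chosen cells. *Nppa* was at 1.56, 0.706, 3.43 and 2.09 in the other *Epcam*+ cells of libraries 5, 6, 7 and 8. Endothelial-gated cells had it at 1.38, 1.04, 2.93 and 2.09, and CMs at 32.5, 30.7, 35.2 and 26.9. The other lower genes included *Cym*, which encodes the stomach protease chymosin, with a log2 fold change of -2.28 (SE 0.43) and levels of 0.201 and 0.0438 in the *Nkx6-2/Onecut1* cells of libraries 5 and 6. *Cym* had no UMI in the chosen cells of libraries 7 and 8, so that the value compares 1 library with 1 and is no test of genotype. Over all chosen cells it was -0.67 (SE 1.46), and it did not pass. They also included *Mt1* (-0.56), *Fos* (-0.62) and *Hist1h1b* (-0.48), and the gene that was higher was *Gm49708* (0.53). *Nppa*, a hormone gene of heart muscle, had a log2 fold change of -0.99 (SE 0.13) and *Hbb-bh1* of -2.12 (SE 0.12). No member of the foregut transcription factor, pharyngeal, hedgehog, Wnt, BMP, FGF, Notch, retinoic acid or *Hox* lists passed in either direction. The part of free RNA in the heart and blood calls was not tested.

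The genotype effect was also compared with that in the other *Epcam*+ cells, by a term for cell class and genotype with the library as a block. Of 11380 genes tested by edgeR, 0 differed at an adjusted p of 0.05. An unadjusted p under 0.05 was found for 270, again fewer than evenly spread p-values would give. With another normalization 0 differed as well, and no second tool was run for this term.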

How the data were processed

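UMI counts by gene were made by the authors with Cell Ranger and deposited without normalization, for 32285 genes in 4 libraries (mm10 by the submitters' processing notes). The file header gives version 6.1.2, and the methods name another. The authors' cell calling left no barcode under 500 UMIs. Libraries 5 to 8 held 259775540, 222270938, 169361996 and 210062861 UMIs over 18488, 8877, 11172 and 11899 barcodes.

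The gate was applied to these counts, and a level is the mean over cells of UMIs per 10000. CM-gated and endothelial-gated cells had no *Epcam* UMI, *Tnnt2* or the endothelial sum at or above its limit, and the other limits kept. No doublet caller was used beyond the gate. Scrublet, with the highest scores removed at 0.8% per 1000 barcodes, was an alternative. Cells were clustered with scanpy 1.11.5 (2000 variable genes, 20 principal components, 15 neighbours, Leiden resolution 0.6). Summed counts were tested with edgeR 4.0.16 (TMM, filterByExpr, quasi-likelihood) in R 4.3.3, with SE as the absolute log2 fold change over the square root of F, and with DESeq2 1.42.0. The edgeR fit was tested on simulated data. Gene positions came from GENCODE M21.

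Named were genes of the rule and its markers, the 30 highest against other cells, up to 4 genes per list, leading cluster genes, and the 5 genes with the smallest p per direction where fewer passed. Of the gene symbols, 38 stand for more than 1 identifier. Members, lists and tests were chosen with earlier results of these data known. Alternatives were other thresholds, filters, normalization, thinning and leaving out each library.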

Additional observations from a re-analysis of the deposited data

How the results depend on the processing

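No replicate number is shared by a control and a *Tie2-cko* library, so the labels give no pairing, and the pairs 5 with 6 and 7 with 8 used as a block are a choice of this re-analysis. The share of *Sox2*+ *Epcam*+ cells among kept cells changed sign with at least 2500 genes per cell (-0.0168 percentage points against 0.158), and ranged from -0.485 to 0.802 when single libraries were left out. Among *Epcam*+ cells the difference kept its sign under every alternative run, and ranged from -16.0 to -6.85 with single libraries left out. Without the filter on low counts edgeR called 5 genes higher and 10 lower in *Tie2-cko*, and 4 genes for the difference from other *Epcam*+ cells, against 0. DESeq2 called 5 genes lower, the block for pairs of libraries 6 lower, the matched cell groups 1 higher and 22 lower, and the *Pax1/Pax9* and *Shh/Trp63* cells alone 1 lower. In the fit of the *Pax1/Pax9* and *Shh/Trp63* cells alone, *Tie2-cko* library 6 gave only 4 and 4 cells. The matched groups, that fit and the setting without the mixed cells were chosen after seeing the data, and the cause was not tested. Other gates, another normalization and leaving out single libraries left 0 calls in both directions. *Lgals1* turned to -0.19 with matched groups and -0.11 without the mixed cells. A resolution of 1.0 gave 11 clusters in place of 7, with 680 of 689 cells kept in their group, and 0.3 gave 5, with 623, where the *Shh/Trp63* cells fell from 170 to 111 and the *Pax1/Pax9* cells rose from 267 to 327. With 2 libraries per genotype a genotype change in these cells had to exceed the spread between libraries of unlike make-up.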

Other observations

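The cells that the rule set aside for *Nkx2-1* were not alike across libraries either. Libraries 5 and 6 held 105 and 113 of them, while library 7 held 3 and library 8 held 49. *Sox9*, a transcription factor of lung buds among other tissues, was at 1.47, 2.05 and 2.11 in those of libraries 5, 6 and 8. *Hhex*, a transcription factor of liver and thyroid, was at 1.3, 1.88 and 7.35, highest in library 8. Cells outside the gate for high *Afp*, a marker of liver, numbered 212, 228, 0 and 37 in libraries 5, 6, 7 and 8, or 2.35%, 5.1%, 0.0% and 0.413% of kept cells, so that libraries 5 and 6 lay above libraries 7 and 8 here too.

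The cells of library 5 with *Xist* were spread unevenly over the groups. No *Xist* UMI was counted in the 101 *Nkx6-2/Onecut1* cells, which allows a share of up to 2.97% by 3 counts of the total or 3.59% by the exact interval, whereas 13 of 92 *Pax1/Pax9* cells (14.1%), 5 of 51 *Shh/Trp63* cells (9.8%) and 682 of 3175 CMs (21.5%) held one. Among the *Nkx2-1* cells of library 5 the count was 3 of 105 (2.86%). The split was noticed in the data and was not tested, since library 5 is a single library.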
